A study of Mus musculus with 12 samples.

Results

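The genes of the p38 MAPK cascade were followed in mouse blastocysts cultured with or without an inhibitor of p38 kinases. The 10 members were chosen by name from the 34245 genes of the deposited table. They are the kinases above p38 (Map2k3, Map2k6), the p38 isoforms (Mapk14, Mapk11, Mapk12, Mapk13), the kinases below p38 (Mapkapk2, Mapkapk3, Mapkapk5) and the phosphatase Dusp1. Poly(A) RNA was sequenced from pools of 30 embryos bred from F1 (C57Bl6 x CBA/W) parents, taken as 2-cell embryos at E1.5 and grown in KSOM medium with amino acids to E3.5. From E3.5 they were kept for 4, 7 or 10 h in 20 µM SB220025, which inhibits p38 kinases (p38-MAPKi), or in the solvent DMSO (control), with 2 pools a group and 12 libraries in all. Times below are hours after E3.5, so that 7 h stands for E3.5 + 7 h. Each time point had its own control pools. The study describes the 2 pools of a group as biological duplicates. Each limma p weighs the spread between pools after drawing it towards a trend over all genes. For p38-MAPKi against control at 4 h, and control 4 h against 7 h, that trend fully replaced the spread of the single gene.

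The p38 kinases are mitogen-activated protein kinases that answer cytokines, stress and growth signals. A MAP2K, chiefly MKK3 (Map2k3) or MKK6 (Map2k6), adds phosphate to a threonine and a tyrosine on the activation lip of p38. Active p38 then phosphorylates kinases such as MK2 (Mapkapk2) and MK3 (Mapkapk3) as well as transcription factors, and phosphatases such as DUSP1 take the phosphates off the lip again. Most of this control acts on the proteins, whereas the libraries hold only mRNA: kinase activity was not measured in them. Work on mouse embryos has tied p38 activity to filling of the blastocyst cavity and to formation of the primitive endoderm.

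The 4 isoforms are encoded by separate genes. The codons shown first are those of the gatekeeper residue, at the back of the ATP pocket, because its identity decides which p38 proteins many ATP-site inhibitors can enter. Each stretch is coding sequence, 5′ to 3′, from the GENCODE M21 transcript with the longest coding sequence (GRCm38), and the capitals mark the gatekeeper codon.

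Mapk14: gtgtacctggtgACCcatctcatgggggcg
Mapk11: gtgtacctcgtgACGaccctgatgggcgcc
Mapk12: ttctacctggtgATGccattcatgggcact
Mapk13: ttctacctggtgATGcccttcatgcagaca

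Mapk14 (p38-α) and Mapk11 (p38-β) encode threonine there, while Mapk12 (p38-γ) and Mapk13 (p38-δ) encode methionine. The codon lies in exon 4 of each transcript, at chr17:28724754-28724756 (+) in Mapk14, chr15:89146371-89146373 (-) in Mapk11, chr15:89135676-89135678 (-) in Mapk12 and chr17:28775264-28775266 (+) in Mapk13. Which of these proteins SB220025 occupied in the embryos was not measured.

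The second set of stretches shows what the isoforms share: the lip on which MKK3 and MKK6 act, with the threonine, glycine and tyrosine codons in capitals.

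Mapk14: gatgagatgACAGGCTACgtggctaccagg
Mapk11: gaggagatgACCGGATATgtggccacacgg
Mapk12: agtgagatgACAGGATATgtggtaacccgg
Mapk13: actgagatgACGGGCTATgtggtgacccgc

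These codons lie in exon 7 of each transcript, at chr17:28728399-28728407 in Mapk14, chr15:89145866-89145874 in Mapk11, chr15:89134676-89134684 in Mapk12 and chr17:28776344-28776352 in Mapk13. The coding sequences, 1080 to 1101 bases long, were 65.5% to 70.3% identical between pairs of isoforms. Mapk12 and Mapk13 were the most alike of the 6 pairs at 70.3%, followed by Mapk14 and Mapk11 at 69.9%. None of the 45 pairs of cascade genes shared a run of 50 bases, the length of the reads, in any annotated transcript, so a full-length exact match could not be exchanged between them.

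The isoform genes also lie in pairs on the chromosomes. Mapk14 (ENSMUSG00000053436.15, chr17:28691342-28748404, +) is followed after 20902 bases by Mapk13 (ENSMUSG00000004864.13, chr17:28769307-28778698, +). Mapk12 (ENSMUSG00000022610.10, chr15:89130585-89140703, -) and Mapk11 (ENSMUSG00000053137.7, chr15:89142486-89149606, -) are separated by 1782 bases.

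Levels were given in RPKM, that is, reads divided by transcript length and by the reads mapped in that library, so that genes can be compared with each other. Total reads ran from 11242313 to 24457311 a library, as recovered from the deposited values. The first p38-MAPKi library at 7 h was the shallowest, with a read on 13996 genes against 16338 to 17640 in the others. The pools of that group correlated at r = 0.894 across genes against 0.965 to 0.982 in the other 5 groups, so results at 7 h are given with and without its libraries where 1 of them decides. As a check of the labelled tissue, the listed markers of trophectoderm (8 of 8), epiblast (8 of 8) and primitive endoderm (7 of 8) reached 1 RPKM in every library, while none of 8 markers of blood, fibroblast or cumulus cells did. In whole embryos, fewer cells of a type and less RNA per cell cannot be told apart.

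The cascade was expressed at each tier, and Map2k3 and Mapk14 stood highest. Map2k3, which encodes the activating kinase MKK3 (ENSMUSG00000018932.9, chr11:60932033-60952811, +), averaged 29.9 ± 4.22 RPKM (SD, n = 12) and Mapk14 averaged 25.2 ± 2.42 RPKM. Mapkapk5, encoding the kinase MK5 or PRAK, averaged 17.2 ± 1.14 RPKM, Mapkapk2 15.4 ± 1.97, Mapkapk3 13.5 ± 2.78 and Mapk13 13.3 ± 2.79. The second activating kinase gene, Map2k6, averaged 5.71 ± 1.63 RPKM and Dusp1 3.99 ± 1.33, with Mapk11 at 1.37 ± 0.480 and Mapk12 at 0.531 ± 0.275.

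Pooled over times and treatments, the order held against the spread between libraries at 8 of its 9 steps. An exact two-sided sign-flip test over the 12 libraries, adjusted over the 9 steps, gave p = 0.0011 for the drop from Mapk14 to Mapkapk5 (1.46-fold, higher in 12 of 12 libraries). Map2k3 exceeded Mapk14 by 1.18-fold (9 of 12 libraries, adjusted exact p = 0.0157), but the exceptions were all at 10 h, where this order did not hold. Map2k3 then read 26.9 and 26.6 RPKM in control and 25.9 and 24.6 with p38-MAPKi. Mapk14 read 26.7 in both control pools and 28.5 and 26.1 with p38-MAPKi. Mapkapk3 and Mapk13 were not separated (1.02-fold, 6 of 12 libraries, exact p = 0.841). Within the MAP2K pair the level of Map2k3 was 5.39-fold that of Map2k6, with a range of 3.03 to 8.70 over libraries. Within the MK2 and MK3 pair Mapkapk2 was 1.15-fold Mapkapk3 and higher in 9 of 12 libraries (adjusted exact p = 0.0275). That pooled ratio hides a split by treatment: it was 1.26 in control and 1.05 with p38-MAPKi, and the exceptions were all p38-MAPKi libraries.

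**Figure D1:**
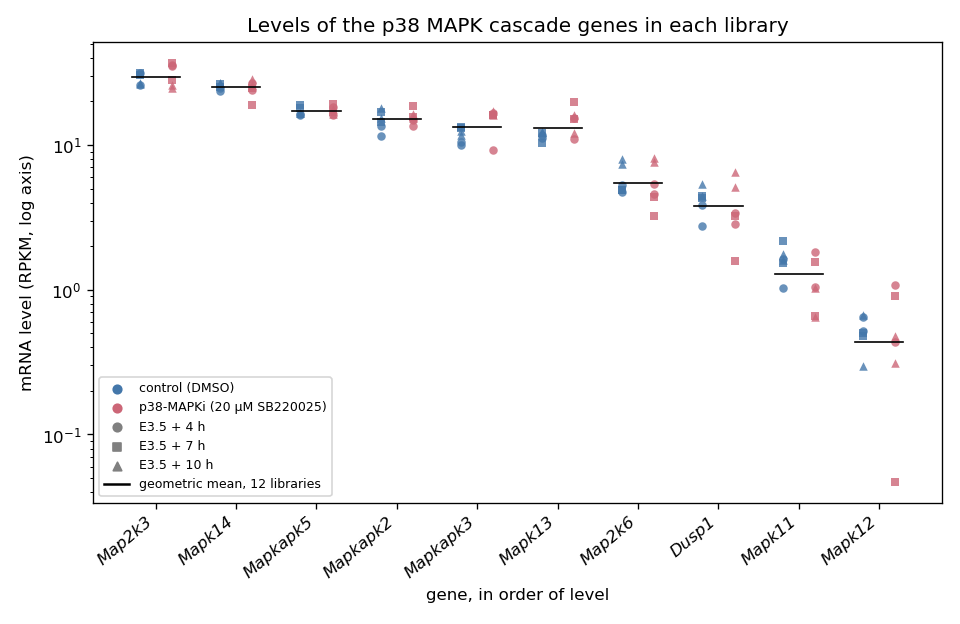
Level of each cascade gene (RPKM, log axis) in the 12 libraries, with genes in order of level, colour for treatment and marker shape for time; black bars are geometric means over 12 libraries. Map2k3 and Mapk14 lie highest, Mapk11 lies near 1 RPKM, and the lowest point is Mapk12 at 0.0471 RPKM in the first p38-MAPKi library at 7 h.

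Among the p38 isoforms, Mapk14 supplied most of the message. In control libraries Mapk14 stood at 23.6 and 24.8 RPKM at 4 h, 25.3 and 26.5 at 7 h, and 26.7 in both at 10 h. With p38-MAPKi the Mapk14 values were 26.8 and 24.0, then 18.9 and 24.7, then 28.5 and 26.1 RPKM. The lowest of the 12 came from the shallow 7 h library, and the other 11 spanned 23.6 to 28.5.

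Mapk13, the gene of p38-δ, was the other isoform seen at more than a few RPKM. Its control values were 11.1 and 11.8, then 12.2 and 10.4, then 12.3 and 12.4 RPKM at the successive times. With p38-MAPKi they were 11.0 and 15.3, then 15.0 and 20.0, then 12.1 and 16.2 RPKM. At 7 h both inhibited pools lay above both control pools, and at the other times the groups overlapped.

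Mapk11 and Mapk12 were near the limit of measurement. Mapk11, the gene of p38-β, read 1.63 and 1.03, 1.53 and 2.16, and 1.59 and 1.76 RPKM in control, and 1.84 and 1.04, 0.656 and 1.55, and 0.651 and 1.02 RPKM with p38-MAPKi. These levels rested on 834 reads over the 12 libraries, 18 in the lowest. Mapk12, the gene of p38-γ, rested on 247 reads, from 1 to 44 a library, and reached 1 RPKM in 1 library alone (1.08 RPKM, p38-MAPKi at 4 h). The single read in the first p38-MAPKi library at 7 h has an exact Poisson interval of 0.0253 to 5.57 reads, which covers counting error only. Mapk12 therefore did not enter the tests across genes.

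As a share of the summed RPKM of the isoforms, Mapk14 made up 62.5% ± 5.15 (SD, n = 12), Mapk13 32.8% ± 5.68, Mapk11 3.40% ± 1.20 and Mapk12 1.29% ± 0.640. The Mapk14 share was 63.8% to 67.1% in the 6 control libraries and 52.4% to 68.5% in the 6 p38-MAPKi libraries. The mean difference from control was -4.96 percentage points (exact stratified permutation p = 0.102, 0.136 adjusted over the 4 shares), and that of Mapk13 was 6.42 points higher (exact p = 0.0833, adjusted 0.136). The Mapk11 share differed by -1.40 points (exact p = 0.0463, adjusted 0.136) and that of Mapk12 by -0.057 points (exact p = 0.889). These two-sided tests shuffle treatment within each time and can reach no p below 0.00926. No share differed past the threshold of 0.05 after adjustment, and the summed RPKM was 39.4 ± 1.67 in control and 41.4 ± 4.13 with p38-MAPKi (SD, n = 6 each).

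**Figure D2:**
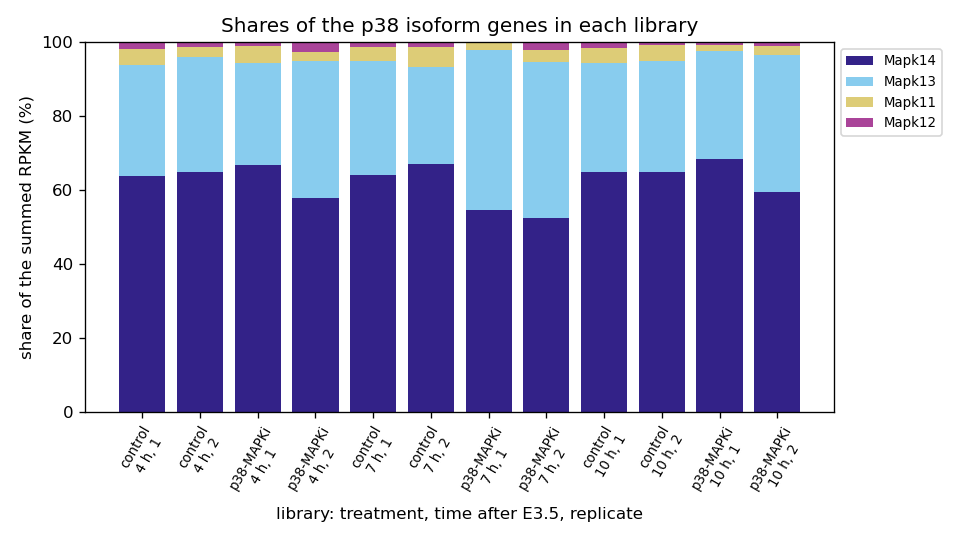
Share (%) of the summed RPKM of the p38 isoform genes taken by each gene, with 1 bar for each of the 12 libraries. Mapk14 takes 52.4% to 68.5% of every bar, and Mapk13 takes its highest shares, 43.3% and 42.4%, in the p38-MAPKi libraries at 7 h.

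The level of Mapk13 depended on the transcript length used, as did those of Mapk12, Mapk11 and Dusp1. The deposited values imply 1512 bases for Mapk13, whereas the joined exons of the gene in GENCODE M21 come to 3150. The same reads divided by the longer model give a mean of 6.38 RPKM, a count that leaves out any reads from the added bases. On that scale Mapk14 took 76.2% and Mapk13 19.5% of the sum, the ratio of Mapk14 to Mapk13 was 3.99 in place of 1.92, and Mapk13 was no longer separated from Map2k6 (adjusted exact p = 0.257). Mapkapk3, not separated from Mapk13 on the deposited scale, was then 2.12-fold higher, in 12 of 12 libraries (adjusted exact p = 0.000879). The longer models also gave lower means for Mapk12 (0.264 RPKM), Mapk11 (1.16 RPKM) and Dusp1 (3.25 RPKM). Mapk14 stayed first and Mapk13 second among the isoforms on each scale, with 27123 and 4842 reads. Dividing a gene by another length scales its value alike in every library and leaves its own fold change between treatments the same.

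Inhibition left the mRNA of the cascade without a change that passed the test. The question there was whether blocking the kinases alters the transcripts that make, switch on or switch off p38. At an adjusted p under 0.05 in limma, with 9 members tested, 0 were called at 4 h (0.909% of all genes tested were called), 0 at 7 h (2.13% of all genes), 0 at 10 h (0.803%) and 0 for the effect common to the times (2.67%). At an unadjusted p under 0.05 the counts were 0, 2, 2 and 2 members, where the shares of all genes were 9.42%, 28.4%, 19.8% and 25.0%. On recovered reads with limma-voom, 1 member was called, Mapkapk3 at 10 h, where 468 of 10957 genes were called.

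For Mapk14 the interval of the common change was narrower than those at 4 h and 7 h. The log2 fold change was 0.07 at 4 h (95% interval -0.336 to 0.470), -0.26 at 7 h (-0.694 to 0.175) and 0.03 at 10 h (-0.148 to 0.208). The common change was -0.05 ± 0.090 (SE), with a 95% interval of -0.249 to 0.140. The Mapk14 values at 7 h lay below control in both pools, where the median log2 change of all genes tested was -0.14. With each library centred on its median, that median was 0.05 and the change of Mapk14 was -0.06. Centring moves the 7 h change of every gene by the same amount, so those of the other members rise alike. The cause of the lower Mapk14 values was not tested. For the activator Map2k3 the common log2 change was 0.10 (interval -0.108 to 0.300), and for Mapkapk2 it was 0.07 (interval -0.127 to 0.272). For Mapkapk5 it was 0.02 (interval -0.143 to 0.185), although its exons overlap other genes on the same strand, so its reads cannot all be assigned to it. Gm42878, listed at 10.7 to 13.2 RPKM, covers 56.4% of its exon bases, and Adam1a, at 0.369 to 1.49 RPKM, covers 56.5%.

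**Figure D3:**
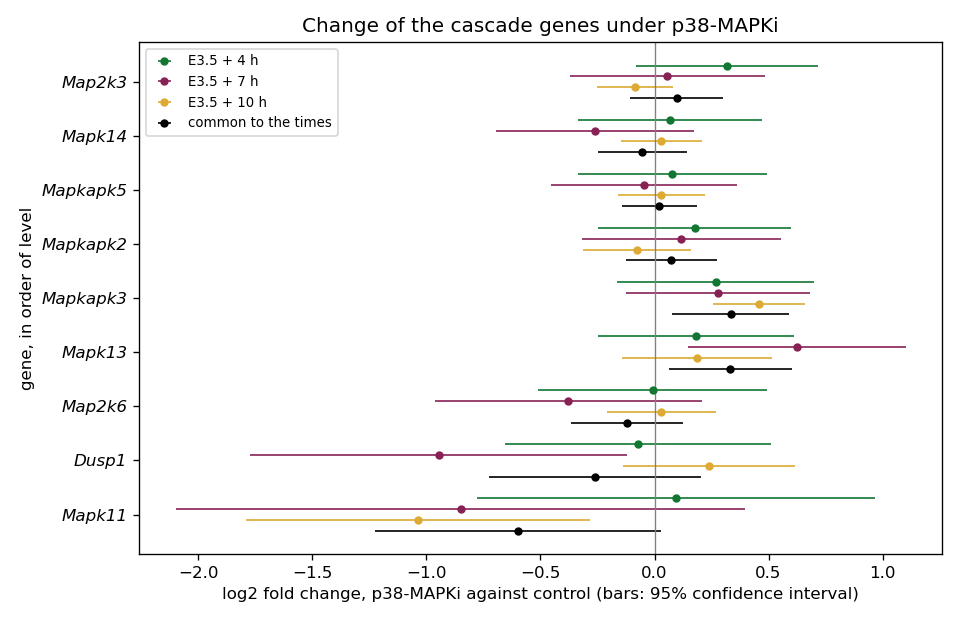
Log2 fold change of p38-MAPKi against control for the 9 members tested, at each time and for the common effect, with 95% confidence intervals from limma before correction for multiple tests. The common interval of Mapk14, -0.249 to 0.140, includes 0, and those of Mapkapk3 and Mapk13 lie above 0 but did not pass the adjusted threshold.

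Mapkapk3, the gene of MK3, was the member nearest to a call. Its control values were 10.6 and 10.0, then 13.1 and 13.4, then 12.5 and 11.7 RPKM, and its p38-MAPKi values were 16.5 and 9.29, then 16.1 and 16.0, then 17.2 and 16.1 RPKM. Inhibited pools lay above control pools at 7 h and 10 h without overlap, and at 4 h one lay above and one below. The log2 change was 0.27, 0.28 and 0.46 at the successive times, with an adjusted p of 0.745, 0.329 and 0.0727. The common difference was 0.33 ± 0.119 (SE) with an adjusted limma p of 0.124. The 10 h change passed with the replicate number as a block (adjusted p = 0.0329), where 410 of 10959 genes were called. It also passed among genes of at least 10 RPKM (0.0431, 166 of 5151 genes called) and in voom (0.00933, 468 of 10957 called). The common change passed without the second p38-MAPKi library at 4 h (0.45, adjusted p = 0.0437).

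Mapk13 gave the largest positive difference of any member at a single time, 0.62 ± 0.211 (SE) on the log2 scale at 7 h, a 1.54-fold difference with an adjusted p of 0.101. It was 0.18 at 4 h, 0.19 at 10 h and 0.33 in common (adjusted p = 0.138). Without the first p38-MAPKi library at 7 h the difference was 0.83, and without the second it was 0.42. In 1 fit over the 12 libraries it was 0.62 (adjusted p = 0.0432), where 2586 of 10940 genes were called. With a loess fit of log2 value on the deposited length taken out of every library, the 7 h difference was 0.30 (adjusted p = 0.390); the part of length in this value was not tested.

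Dusp1 encodes a nuclear phosphatase that switches off p38 and JNK and whose transcription those pathways can raise in other cells. In control it read 2.75 and 3.88, then 4.32 and 4.43, then 4.44 and 5.35 RPKM. With p38-MAPKi it read 3.41 and 2.83, then 1.58 and 3.25, then 6.47 and 5.12 RPKM. The groups overlapped at 4 h and 10 h, and at 7 h both inhibited pools were lower. That difference was -0.95 ± 0.366 (SE) on the log2 scale with an adjusted p of 0.136, and it turned on 1 library: it was -0.43 (adjusted p = 0.373) without the first p38-MAPKi pool, which had 48 Dusp1 reads, and -1.47 (adjusted p = 0.00265) without the second. At 10 h the log2 change was 0.24 (adjusted p = 0.440).

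The Dusp1 promoter is shown because p38 acts on transcription partly through factors of the ATF and CREB family, which bind the letters TGACGTCA and its shorter form TGACG. It runs from 250 bases before the gene start to 50 after it (RefSeq, GRCm38.p6, chr17:26508423-26508722, minus strand), 5′ to 3′ along the gene, and capitals mark each TGACG found on either strand.

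Dusp1: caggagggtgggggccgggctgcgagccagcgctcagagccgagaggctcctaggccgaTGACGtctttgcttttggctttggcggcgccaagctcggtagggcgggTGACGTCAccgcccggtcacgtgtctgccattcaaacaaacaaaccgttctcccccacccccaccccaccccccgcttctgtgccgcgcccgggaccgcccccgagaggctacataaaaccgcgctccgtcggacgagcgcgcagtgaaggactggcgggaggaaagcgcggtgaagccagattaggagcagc

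TGACG was present 3 times, and the copies that start at -143 and -140 overlap as 1 full TGACGTCA. The full motif was found in 1.79% of the 32851 promoter windows and the short form in 20.8%. Of the 10 cascade genes, which have 14 windows between them, 5 had the short form in a window and Dusp1 alone had the full one. These counts are of genes, whereas the shares above are of windows. Binding at these letters was not measured.

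Mapk11 differed by -1.04 ± 0.314 (SE) on the log2 scale at 10 h, with both inhibited pools below both controls and an adjusted p of 0.148. The pools held 35 and 61 reads against 74 and 100 in control. At 4 h the difference was 0.09, and the common difference was -0.60 (adjusted p = 0.214). At 7 h the Mapk11 difference was -0.85 and turned on 1 library: it was -0.23 (adjusted p = 0.780) without the first p38-MAPKi pool, which held 18 Mapk11 reads, and -1.47 (adjusted p = 0.0245) without the second. Counted in either direction, the pools of the treatments did not overlap for 1 of 9 members at 4 h (40.4% of all genes tested), 5 at 7 h (61.7%) and 3 at 10 h (52.2%), which is not more than the background share.

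Tests of the difference between times called 0 members, against 0.00884% of all genes between 4 and 7 h, 0.00877% between 7 and 10 h and 0.0% between 4 and 10 h. At an unadjusted p under 0.05 they counted 0, 1 and 1 members, where 6.83%, 26.3% and 9.86% of all genes passed. The nearest was Dusp1 between 7 and 10 h, where the effect of p38-MAPKi shifted by 1.19 ± 0.444 (SE) on the log2 scale (adjusted p = 0.147). Without the second p38-MAPKi library at 7 h, 1 pool was left in that group. The shift was then 1.71 for Dusp1, 0.63 for Map2k6 and 0.48 for Mapk14, against 1.19, 0.41 and 0.29 in all libraries. Leaving out the first library instead brought the 7 h effects nearer to those at 10 h. They were then -0.43 for Dusp1, -0.16 for Map2k6 and -0.07 for Mapk14, where the 10 h effects were 0.24, 0.03 and 0.03. The size of these shifts thus varied with the pools kept at 7 h.

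Over time the clearest movement was in Map2k6, the gene of MKK6 (ENSMUSG00000020623.11, chr11:110399122-110525522, +). In control it read 4.70 and 5.29 RPKM at 4 h, 4.90 in both pools at 7 h, and 7.35 and 8.04 at 10 h. With p38-MAPKi it read 5.34 and 4.61, then 3.23 and 4.40, then 7.58 and 8.13 RPKM. In both treatments the 10 h pools lay above all earlier ones. In the inhibited embryos the rise from 7 h to 10 h was 1.06 ± 0.208 (SE) on the log2 scale, 2.08-fold, with an adjusted limma p of 0.0238. It was the only member called there, where 22.0% of all genes were called. It was 0.84 (adjusted p = 0.00389) without the first 7 h pool, and 1.11 (adjusted p = 0.173) or 1.01 (adjusted p = 0.173) without 1 or the other 10 h pool.

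In control embryos the same step measured 0.65 ± 0.136 (SE; adjusted p = 0.545, where 0.0552% of genes were called), and from 4 h to 10 h it was 0.62 ± 0.152 (adjusted p = 0.102, where 0.471% were called). The steps in the 2 treatments share no library, and the test of their difference gave 0.41 ± 0.247 (SE; adjusted p = 0.316). Counts of members called in control were 0 for each pair of times, 0.492% of genes being called between 4 and 7 h. At an unadjusted p under 0.05 there were 0 members from 4 to 7 h (4.79% of genes) and 1, Map2k6, from 7 to 10 h (3.79%). With the replicate number as a block, Map2k6 (adjusted p = 0.00685) and Dusp1 (adjusted p = 0.0461) passed from 4 to 10 h in control. In that fit 536 of 10825 genes were called. Without adjustment 3 members had a p under 0.05 in control from 4 to 10 h, namely Map2k6, Dusp1 (0.58) and Mapkapk2 (0.41), where 15.2% of all genes passed.

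In p38-MAPKi embryos 0 members were called from 4 to 7 h (0.0092% of genes) or from 4 to 10 h (0.0%). An unadjusted p under 0.05 was met by 0 members from 4 to 7 h (9.49% of genes), 3 from 4 to 10 h (22.2%) and 2, Map2k6 and Dusp1, from 7 to 10 h (40.6%). From 7 to 10 h the Dusp1 difference was 1.34 ± 0.371 (SE) on the log2 scale (adjusted p = 0.0511). It was 0.82 without the first 7 h pool and 1.86 without the second. It passed with the replicate number as a block (adjusted p = 0.000891), where 3408 of 11024 genes were called. In 1 fit over the 12 libraries it passed as well (adjusted p = 0.00917), where 3638 genes were called. The Map2k3 difference from 4 to 10 h was -0.49 on the log2 scale (adjusted p = 0.137). It passed with the replicate number as a block (adjusted p = 0.020), where 1818 of 10949 genes were called. The Map2k3 value was -0.50 without the first 4 h pool and -0.49 without the second. From 4 to 10 h, Dusp1 and Map2k6 also passed with the block (adjusted p = 0.00283 and 0.0141). In all libraries the differences over these times were 0.89 for Dusp1, 0.66 for Map2k6 and 0.42 for Mapkapk3, and none passed in the main fit. Without the first 4 h pool they were 1.02, 0.77 and 0.84. The Mapkapk3 difference rested on the second 4 h pool, at 9.29 RPKM. The first 4 h pool read 16.5 RPKM, against 17.2 and 16.1 at 10 h. For Dusp1 and Map2k6 both 10 h pools lay above both 4 h pools. From 7 to 10 h, Map2k3 differed by -0.35, Mapk13 by -0.30 and Mapk14 by 0.34. None of these passed in the main fit. Without the first 7 h pool Map2k3 gave -0.54 and Mapk13 -0.51, and without the second Mapk14 gave 0.53. In each case the pool left out was the one nearer to the 10 h level, so these are the larger values. That pool read 28.1 RPKM for Map2k3, against 25.9 and 24.6 at 10 h. For Mapk13 it read 15.0 against 12.1 and 16.2, and for Mapk14 24.7 against 28.5 and 26.1. The Map2k3 values were 35.4 and 35.6 RPKM at 4 h with p38-MAPKi, 28.1 and 36.7 at 7 h, and 25.9 and 24.6 at 10 h. Control values of Map2k3 were 25.8 and 31.4, then 31.2 and 30.5, then 26.9 and 26.6 RPKM, so the activator genes Map2k3 and Map2k6 stood closest to each other in level at 10 h.

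**Figure D4:**
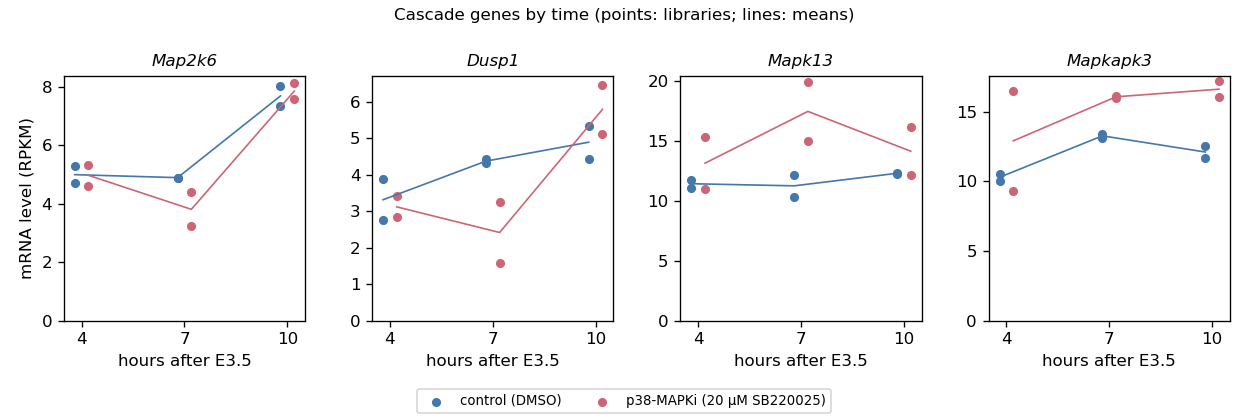
Levels (RPKM, axes from 0) of Map2k6, Dusp1, Mapk13 and Mapkapk3 at 4, 7 and 10 h after E3.5; points are libraries and lines join the means of 2 libraries. Map2k6 reaches 7.35 to 8.13 RPKM at 10 h in both treatments, and Dusp1 spreads from 1.58 to 3.25 RPKM in p38-MAPKi at 7 h.

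The remaining kinase genes gave smaller differences. Mapkapk2, the gene of MK2 (ENSMUSG00000016528.10, chr1:131053700-131097826, -), read 11.6 and 13.6, 17.0 and 14.4, and 18.0 and 15.5 RPKM in control, and 15.0 and 13.4, 18.5 and 15.6, and 15.3 and 16.4 with p38-MAPKi. Mapkapk5 (ENSMUSG00000029454.15, chr5:121525038-121545905, -) had the lowest ratio of highest to lowest value among the 10 genes, 1.20, with a range of 16.1 to 19.2 RPKM. Mapkapk3 lies at chr9:107254927-107289877 (-, ENSMUSG00000032577.16) and Dusp1 at chr17:26505590-26508519 (-, ENSMUSG00000024190.7).

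Around the cascade, 81 further genes of the pathway were described in 7 lists, all of them present in the table. Ddit3, Atf2, Zfp36 and Dusp4 were named because they were called in these comparisons. Their lack of overlap between treatments follows in part from that choice and is no further evidence. Of the transcription factors that p38 phosphorylates, 11 of 12 were tested. For the effect common to the times, 1 was called higher and 1 lower, where 2.67% of all genes were called, and the median log2 change was -0.23 against -0.03 over all genes. Ddit3 (CHOP), a stress-induced factor, read 5.29 to 8.18 RPKM in the 6 control libraries and 11.0 to 21.6 in the 6 p38-MAPKi libraries, without overlap. Its log2 change was 1.23 at 4 h (adjusted p = 4.5e-05), 1.47 at 7 h (adjusted p = 0.0397), 0.73 at 10 h (adjusted p = 0.0561) and 1.14 in common (adjusted p = 0.00419). The common call of Ddit3 held in 22 of 22 alternative settings, against 8 of 15 for the 4 h call and 10 of 15 for the 7 h call. At 4 h it was lost with median centring, quantile normalization, voom (adjusted p = 0.365), 12 libraries in 1 fit, no variance trend or no filter. It was also lost there without the first control library (0.98). Centring, quantile normalization, voom and the 12-library fit each called 0 genes in all at 4 h. At 7 h the Ddit3 call was lost with median centring, no variance trend, no filter or the length trend removed, and without the second control library (1.30).

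Atf2, which encodes a factor activated by p38 and JNK, moved the other way. It read 4.96 to 5.54 RPKM in control and 2.05 to 4.06 with p38-MAPKi, again without overlap. The common log2 change was -0.71 (adjusted p = 0.0189). It was -0.66, -1.05 and -0.43 at the single times, where none passed. The common call held in 19 of 21 alternative settings and was lost with the replicate number as a block (adjusted p = 0.0537) and without the first control library at 7 h (-0.68, adjusted p = 0.0526).

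Of the RNA-binding and other substrates of MK2, 10 of 10 were tested, and 0 were called higher and 1 lower in the common effect, where 2.67% of all genes were called (list median -0.03). That gene was Zfp36, which encodes tristetraprolin, a protein that promotes decay of AU-rich mRNAs and is held inactive by MK2. It read 4.20 to 5.49 RPKM in control and 2.51 to 4.11 with p38-MAPKi, without overlap, and its common log2 change was -0.47 (adjusted p = 0.0436). That call held in 6 of 21 alternative settings and in none of the 12 fits that each left out 1 library (adjusted p up to 0.112).

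Of the other phosphatases of MAP kinases, 12 of 14 were tested, and 0 were called higher and 1 lower in the common effect, where 2.67% of all genes were called (list median 0.11). It was Dusp4, a nuclear phosphatase of ERK, JNK and p38. Dusp4 read 8.90 to 15.3 RPKM in control and 5.00 to 8.60 with p38-MAPKi, again without overlap. The log2 change was -1.17 at 7 h (adjusted p = 0.0487) and -0.74 in common (adjusted p = 0.0253), and the common call held in 14 of 22 alternative settings. It was lost without either control library at 4 h or at 7 h and without the second p38-MAPKi library at 4 h or at 7 h. It was also lost with no variance trend or no filter (adjusted p up to 0.0662 over all settings). The 7 h call held in 8 of 15 alternative settings. It was lost without either control library, and with median centring, quantile normalization, no variance trend, no filter or the length trend removed. Dusp1, of the same family, had a common log2 change of -0.26 (adjusted p = 0.459).

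**Figure D5:**
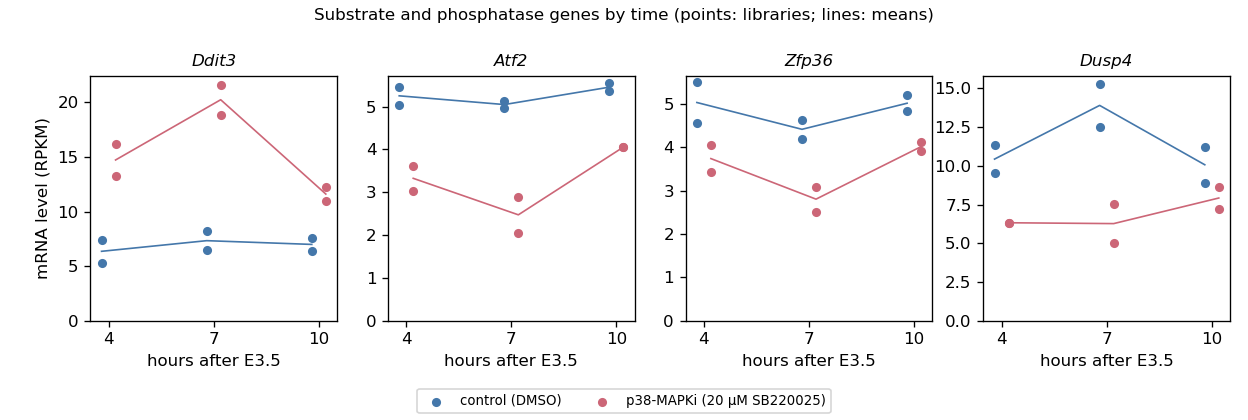
Levels (RPKM, axes from 0) of Ddit3, Atf2, Zfp36 and Dusp4 at 4, 7 and 10 h after E3.5; points are libraries and lines join the means of 2 libraries. Ddit3 lies higher with p38-MAPKi in every library, up to 21.6 RPKM, and the other genes lie lower.

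The other lists gave no calls in the common effect, where 2.67% of all genes were called, or at a single time. At 4, 7 and 10 h the shares of all genes called were 0.909%, 2.13% and 0.803%. Among kinases and GTPases above the MAP2Ks, 19 of 20 were tested with a median common log2 change of -0.23, against -0.03 over all genes. Cdc42, the most abundant, had a common log2 difference of 0.06 and Taok1, which had the lowest p, one of -0.58 (adjusted p = 0.0838). Among other activators and scaffolds, 7 of 8 were tested: the difference was -0.06 for Map2k4, the most abundant, and 0.59 for Gadd45a, a stress-induced activator of p38 (adjusted p = 0.101). Of the other kinases below p38, 4 of 4 were tested, with Mknk2 at 0.05 and Mknk1 at -0.35 (adjusted p = 0.142). Of the ERK and JNK cascades 12 of 13 were tested, with Map2k2, the most abundant, at 0.14.

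Named for their level alone, Max had a common log2 difference of -0.23, Hnrnpa0 of -0.02 and Ppm1b of -0.25, and none of these passed. Over the 12 libraries, the genes with the mean-centred log2 profile nearest to that of Mapk14, of 10767 compared, were Man1b1, Lamp1 and Cstf1, at a root-mean-square difference of 0.0476 to 0.0483. For Mapk13 they were Bst2, Dynlrb1 and Thoc1 (0.0874 to 0.119), and for Dusp1 Gm12790, Sh3bp5 and Fndc10 (0.148 to 0.157). These distances describe profiles that share libraries and depth.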

How the data were processed

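The authors deposited 1 table of log2 RPKM values per gene and library (SeqMonk; per the labels, reads were trimmed with Trim Galore 0.4.1 and aligned with HISAT2 2.0.5 to GRCm38). Genes with no reads carry a value equal to 0.9 read. Whole reads and library totals were recovered from the steps of the values for 34238 of 34245 genes (tolerance 0.02 read). The main test was limma 3.58.1 (R 4.3.3) with a variance trend on the deposited log2 values, for genes of at least 1 RPKM in at least 2 libraries of a comparison, with Benjamini-Hochberg adjustment over all genes tested and a threshold of 0.05. Each time was tested alone (4 libraries), and the common effect used 12 libraries with time as a term. Levels and shares were compared with exact tests over libraries. The members, lists and tests were chosen with earlier results of these data known. Named genes were the members, and of each list the most abundant gene, that with the lowest p and those called. For 1 list the gene with the lowest p is not reported here. The scripts were tested on simulated data, in which the share of false calls exceeded the threshold at 7 h and 10 h. Strand and multi-mapping options of the counting were not given in the sources used here.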

Additional observations from a re-analysis of the deposited data

How the results depend on the processing

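Counts of cascade genes called moved as follows, with all genes called in brackets. With 12 libraries in 1 fit, 2 members were called at 7 h (2586 of 10940) and 2 in p38-MAPKi from 7 to 10 h (3638 of 11024). With the replicate number as a block, 1 was called at 10 h (410 of 10959) and 2 in p38-MAPKi from 7 to 10 h (3408 of 11024). The block also gave 3 in p38-MAPKi from 4 to 10 h (1818 of 10949) and 2 in control from 4 to 10 h (536 of 10825). Centring on the median gave 2 in p38-MAPKi from 7 to 10 h (2478 of 11024). Genes of at least 10 RPKM (166 of 5151) or voom (468 of 10957) gave 1 at 10 h. Leaving out 1 library in turn gave 0 to 1 members in common. In the other comparisons it leaves 1 pool in a group, so their counts are not given. The replicate numbers are not stated to pair libraries, so the main fit had no block. Same-numbered libraries correlated at -0.012, 0.162 and 0.167 in their deviations at 4, 7 and 10 h.

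Signs turned for values that were not called. On the log2 scale, removing the length trend gave -0.0119 for Mapkapk5 in common and -0.00733 for Mapk11 at 4 h, quantile normalization gave -0.0324 for Mapk14 at 4 h, and centring, quantile normalization and voom gave 0.150, 0.0597 and 0.0114 for Mapkapk5 at 7 h. The Mapk12 share differed by 0.0085 points on reads. Leaving out 1 library in turn, the common value ran from -0.0896 to 0.0189 for Mapk14 and -0.00911 to 0.0536 for Mapkapk5. At 4 h it ran from -0.315 to 0.501 for Mapk11, -0.0583 to 0.423 for Mapk13, -0.0142 to 0.148 for Mapk14, -0.115 to 0.0989 for Map2k6, -0.146 to 0.683 for Mapkapk3, -0.0142 to 0.170 for Mapkapk5 and -0.319 to 0.174 for Dusp1. At 7 h it ran from -0.135 to 0.248 for Map2k3, -0.00395 to 0.240 for Mapkapk2 and -0.142 to 0.0519 for Mapkapk5. At 10 h it ran from -0.0205 to 0.394 for Mapk13, -0.0333 to 0.0931 for Mapk14, -0.0344 to 0.0952 for Map2k6, -0.188 to 0.0350 for Mapkapk2 and -0.0275 to 0.0883 for Mapkapk5. The Mapk12 share ran from -0.357 to 0.243 points. The cause was not tested.

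Over all genes, calls ran from 0 to 412 at 4 h (98 reported), 0 to 2996 at 7 h (233), 0 to 468 at 10 h (88), 64 to 685 in common (310) and 75 to 6434 in p38-MAPKi from 7 to 10 h (2424). With 2 pools a group, and few reads for Mapk11 and Mapk12, moderate changes of these genes could be missed.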
